A study of Homo sapiens with 2 samples.

Results

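The 9 genes described here, which write or read histone acetylation, or hold back the kinase that such reading recruits, were followed in single WaGa cells. They were taken by name: the acetyltransferase genes EP300, CREBBP, KAT2A, KAT2B, KAT5 and KAT6A, the BET reader genes BRD2 and BRD3, and HEXIM1. All 9 were found among the 32742 genes of the deposited table, and all 9 had at least 100 unique molecular identifiers (UMIs, each standing for 1 captured transcript) over both libraries. WaGa is an established line of Merkel cell carcinoma, a neuroendocrine skin cancer. Cells were barcoded on the Chromium platform (10x Genomics 3′ chemistry, v2.0) in 2 groups of 1 library each: cells treated with domatinostat, an inhibitor of class I histone deacetylases dissolved in DMSO, and cells labelled as receiving no treatment. Dose and time are not stated in the labels, nor whether the untreated cells received the solvent.

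Acetyltransferases transfer acetyl groups from acetyl-CoA to lysines of histones and other proteins, and histone deacetylases, the drug's targets, remove them. Bromodomain proteins of the BET family bind acetylated histone tails and help to bring P-TEFb, the kinase CDK9 with a cyclin T partner, to promoters, where it releases paused RNA polymerase II. HEXIM1 keeps P-TEFb inactive in a particle built on 7SK RNA, and it was first described as a transcript induced by hexamethylene bisacetamide, a differentiation agent. In many cell types its transcript is a marker of BET inhibitor exposure.

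Depth came to 60160108 UMIs over 6679 cells (median 8578 per cell) in the library labelled treated and to 45562976 UMIs over 4137 cells (median 11125 per cell) in the library labelled untreated. The libraries shared 48 cell barcodes. CDKN1A and H1F0, which deacetylase inhibitors commonly induce, were both lower in the library labelled treated, at 39.4 CPM (UMIs per 1000000 UMIs of the library) against 97.9 CPM in the library labelled untreated for CDKN1A, and at 167 CPM against 214 CPM for H1F0, so the groups are named by their labels throughout. Whether the treatment words in the cell names stand with the right cells was not tested, and if they were exchanged every ratio and every direction below would turn round. Of 10 Merkel cell carcinoma markers, 9 had at least 100 UMIs, and their summed level was 2217 CPM in the library labelled treated and 1829 CPM in the library labelled untreated. NEUROD1, the exception, had 7 and 19 UMIs. Summed marker levels of T, B, myeloid, fibroblast, endothelial, keratinocyte and melanocyte lineages lay between 0 and 18.0 CPM in the library labelled treated and between 0.0878 and 29.3 CPM in the library labelled untreated, and CD3D, CD2, MS4A1, CDH5, TP63 and TYR had no UMI in either. Their part in the results below was not tested. With 1 library per group there is no replicate and no test between the groups, and all intervals below are 95% intervals that cover counting error only.

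Levels in the library labelled treated over those in the library labelled untreated had ratios above 1 for the 6 acetyltransferase genes and BRD3 and below 1 for BRD2 and HEXIM1. By this ratio, EP300, BRD3 and CREBBP were the highest of the 9, at 1.40, 1.38 and 1.37, and HEXIM1 and BRD2 the lowest, at 0.778 and 0.817. No member reached 1.5-fold either way, a size that 3.17% of 12812 genes with at least 100 UMIs passed upward and 12.2% downward. The same size was passed by 2.55% and 7.28% of 8038 genes at 5 to 100 CPM, a range that holds 7 of the 9 members. At a log2 ratio of 0.32 or more either way, 4 of 9 members were higher and 1 lower, against 13.2% and 21.8% of all genes. The counting interval lay above 1 for 5 members and below 1 for 2, as it did for 30.5% and 34.2% of all genes, and it held 1 for KAT2B and KAT6A. The median log2 ratio was 0.23 over the 9 members and -0.01 over all genes tested.

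**Figure D1:**
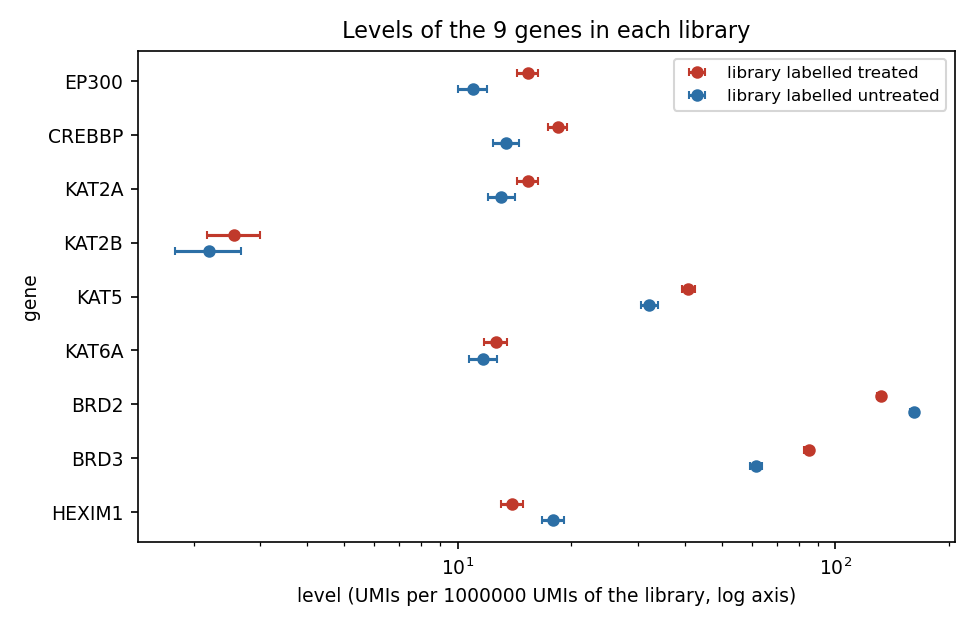
Level of each of the 9 genes, in UMIs per 1000000 UMIs of the library on a log axis, in the library labelled treated (red, upper point of each pair) and the library labelled untreated (blue), with exact Poisson intervals. BRD2 is the most abundant in both libraries, at 132 and 161 CPM, and KAT2B the least, at 2.56 and 2.19 CPM.

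The widely acting coactivators p300 and CBP, encoded by the paralogs EP300 and CREBBP, acetylate histone H3 at enhancers and promoters. EP300 had 922 UMIs, or 15.3 CPM, in the library labelled treated and 499 UMIs, or 11.0 CPM, in the library labelled untreated, a ratio of 1.40 (1.254 to 1.56). CREBBP had 18.4 CPM in the library labelled treated and 13.4 CPM in the library labelled untreated, a ratio of 1.37 (1.24 to 1.51). Both ratios stood near the top of the genes tested, above 94.7% of them for EP300 and 93.6% for CREBBP. CREBBP made up 54.6% (52.4% to 56.7%) of the UMIs of the pair in the library labelled treated and 55.1% (52.1% to 58.0%) in the library labelled untreated, so the pair was higher with nearly the same make-up.

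KAT2A and KAT2B encode GCN5 and PCAF, alternative catalytic subunits of the SAGA and ATAC coactivator complexes. KAT2A had 15.3 CPM in the library labelled treated and 13.1 CPM in the library labelled untreated, a ratio of 1.17 (1.06 to 1.30). KAT2B had only 154 and 100 UMIs, with a ratio of 1.17 and an interval from 0.901 to 1.52. The pair was mostly KAT2A in both libraries, with 85.7% of its UMIs in the library labelled treated and 85.6% in the library labelled untreated.

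KAT5 encodes TIP60, the catalytic subunit of the NuA4 complex, and was the most abundant of the 6 acetyltransferase genes. It had 2455 UMIs, or 40.8 CPM, in the library labelled treated and 1464 UMIs, or 32.1 CPM, in the library labelled untreated, a ratio of 1.27 (1.19 to 1.36). KAT6A encodes MOZ, an acetyltransferase of histone H3 that works with BRPF1, and its 12.6 CPM in the library labelled treated and 11.7 CPM in the library labelled untreated did not differ beyond counting error (ratio 1.08, 0.963 to 1.21). Summed over the 6 genes, acetyltransferase transcripts had 105 CPM in the library labelled treated and 83.5 CPM in the library labelled untreated, a ratio of 1.26 (1.21 to 1.31).

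**Figure D2:**
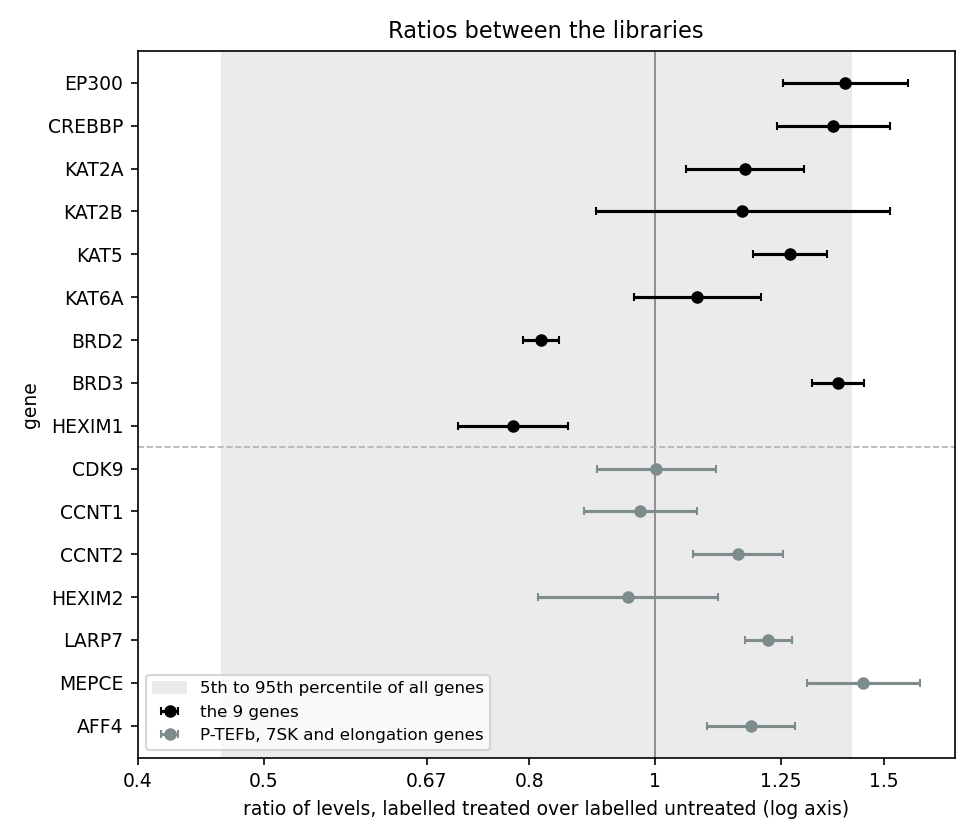
Ratio of levels, library labelled treated over library labelled untreated, on a log axis with 95% exact counting intervals, for the 9 genes (black) and for P-TEFb, 7SK and elongation genes (grey). The shaded band runs from the 5th to the 95th percentile of the ratio over 12812 genes, 0.464 to 1.41. All 9 points lie inside the band, BRD2 and HEXIM1 left of 1 and the other 7 right of it.

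Both BET members carry tandem bromodomains, and their ratios went opposite ways. BRD2 had 7924 UMIs, or 132 CPM, in the library labelled treated and 7346 UMIs, or 161 CPM, in the library labelled untreated, a ratio of 0.817 (0.791 to 0.843). BRD3 had 5115 UMIs, or 85.0 CPM, in the library labelled treated and 2804 UMIs, or 61.5 CPM, in the library labelled untreated, a ratio of 1.38 (1.32 to 1.45). There were thus 1.55 BRD2 UMIs per BRD3 UMI in the library labelled treated and 2.62 in the library labelled untreated.

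Of the UMIs of BRD2 and BRD3 together, BRD3 took 39.2% (38.4% to 40.1%) in the library labelled treated and 27.6% (26.8% to 28.5%) in the library labelled untreated. Their sum was 217 CPM in the library labelled treated and 223 CPM in the library labelled untreated, a ratio of 0.973 (0.948 to 0.999), so the make-up of the pair differed more than its sum. BRDT, the BET gene of the testis, had no UMI in either library. These shares compare genes by UMIs near the 3′ end, 1 per captured transcript with no division by length, and capture can differ between genes.

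HEXIM1 had 837 UMIs, or 13.9 CPM, in the library labelled treated and 815 UMIs, or 17.9 CPM, in the library labelled untreated, a ratio of 0.778 (0.705 to 0.858). Its paralog HEXIM2 was scarcer, at 5.92 CPM in the library labelled treated and 6.21 CPM in the library labelled untreated, with a ratio of 0.953 (0.813 to 1.12). Of the kinase and its cyclins, CDK9 had a ratio of 1.00 (0.902 to 1.11) and CCNT1 of 0.974 (0.881 to 1.08), neither beyond counting error. CCNT2 had a ratio of 1.16 (1.07 to 1.254), above 1. MEPCE and LARP7, which also encode proteins of the 7SK particle, went the other way from HEXIM1. MEPCE, which caps 7SK RNA, had 19.2 CPM in the library labelled treated and 13.3 CPM in the library labelled untreated, a ratio of 1.45 (1.31 to 1.60), and LARP7, which binds its 3′ end, had a ratio of 1.22 (1.17 to 1.27).

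In order of level, BRD2, BRD3 and KAT5 came first in both libraries, each apart from the next beyond its Poisson interval, and KAT2B came last. HEXIM1 was 4th in the library labelled untreated, apart from CREBBP below it, and 7th in the library labelled treated, where EP300, KAT2A, HEXIM1 and KAT6A followed each other with overlapping intervals. In the library labelled untreated the intervals of CREBBP, KAT2A, KAT6A and EP300 overlapped in the same way, each with the next.

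The sequences upstream of 3 members are shown because these genes hold the highest ratio of an acetyltransferase, the highest of a BET reader and the lowest of all, and each has a single start in the RefSeq promoter table. They are the 250 bases before the start, 5′ to 3′ on the gene's strand, in build GRCh38.p14: chr22:41092342-41092591 on the plus strand for EP300, chr9:134068027-134068276 on the minus strand for BRD3 and chr17:45148225-45148474 on the plus strand for HEXIM1. Of the 9 members, 8 were looked up in that table. Capitals mark matches on either strand to the CCAAT box (CCAAT), the GC box (GGGCGG), the TATA box (TATAAA), the E-box (CACGTG), the ETS site (CCGGAAG) or the CRE (TGACGTCA).
EP300: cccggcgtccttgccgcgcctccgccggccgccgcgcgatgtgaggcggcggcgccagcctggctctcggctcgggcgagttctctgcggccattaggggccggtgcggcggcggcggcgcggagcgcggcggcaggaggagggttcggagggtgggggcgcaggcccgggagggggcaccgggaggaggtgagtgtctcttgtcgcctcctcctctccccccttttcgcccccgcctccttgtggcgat
BRD3: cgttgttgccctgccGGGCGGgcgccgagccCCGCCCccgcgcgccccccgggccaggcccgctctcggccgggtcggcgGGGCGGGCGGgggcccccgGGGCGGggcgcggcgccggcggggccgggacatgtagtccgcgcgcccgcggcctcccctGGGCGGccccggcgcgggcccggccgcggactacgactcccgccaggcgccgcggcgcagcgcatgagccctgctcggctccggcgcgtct
HEXIM1: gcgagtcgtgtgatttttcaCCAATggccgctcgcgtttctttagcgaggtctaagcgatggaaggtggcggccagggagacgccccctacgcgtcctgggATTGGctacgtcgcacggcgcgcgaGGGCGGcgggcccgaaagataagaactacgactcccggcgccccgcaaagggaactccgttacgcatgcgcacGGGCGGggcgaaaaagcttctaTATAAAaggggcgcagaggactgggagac

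HEXIM1 held 2 CCAAT boxes, 2 GC boxes and 1 TATA box, BRD3 held 6 GC boxes, a pair of which overlap, and EP300 held no match to any of the 6 motifs. Among 35116 such stretches of all genes, 32.0% held a CCAAT box, 42.6% a GC box and 10.7% a TATA box. The shares were 6.34% for the E-box, 8.52% for the ETS site and 1.65% for the CRE. GC content was 76.8% for EP300, 86.8% for BRD3 and 62.4% for HEXIM1, against a median of 58% over all stretches. A match is a string of letters and not a measured site.

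Cells labelled untreated were the deeper ones, so depth was made equal before cells were compared. Each cell was thinned to 4351 UMIs, and shallower cells were left out, which kept 6012 of 6679 cells labelled treated and 3892 of 4137 labelled untreated. BRD2 then had a UMI in 43.2% (41.9% to 44.4%) of these cells in the library labelled treated and in 49.6% (48.0% to 51.2%) in the library labelled untreated, and BRD3 in 30.9% (29.7% to 32.0%) and 23.0% (21.7% to 24.4%). Unthinned, BRD2 was seen in 64.7% of cells labelled treated and 77.4% of cells labelled untreated, and BRD3 in 51.2% and 46.5%.

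Among the less abundant members, KAT5 had a UMI in 16.3% of thinned cells labelled treated and 12.5% of those labelled untreated, CREBBP in 7.52% and 5.63%, and EP300 in 6.42% and 5.04%. HEXIM1 had one in 6.12% (5.53% to 6.76%) of thinned cells labelled treated and 7.503% (6.69% to 8.38%) of those labelled untreated. Unthinned, the shares were 29.5% of cells labelled treated and 28.8% of cells labelled untreated for KAT5, 14.9% and 13.5% for CREBBP, 12.5% and 10.7% for EP300, and 11.5% and 17.0% for HEXIM1. KAT2A had a UMI in 6.69% and 5.63% of thinned cells but in 12.9% and 13.2% of unthinned ones, so its order turned. Thinning both made depth equal and left out the shallowest cells, and these were not separated. KAT6A was seen in 5.14% of thinned cells labelled treated and 4.62% of those labelled untreated, and KAT2B in 1.06% and 0.745%. Their order also turned unthinned, with 10.4% of cells labelled treated and 11.8% of cells labelled untreated for KAT6A, and 2.26% and 2.39% for KAT2B. No cell type that lacks these genes was at hand, so the share of these UMIs that came from free RNA is unknown.

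The variance of thinned UMIs over their mean, which is 1 for Poisson counts, lay between 0.962 and 1.09 over the 9 members and both libraries. The largest values were 1.088 for BRD3 and 1.086 for BRD2, in the library labelled untreated. For scarce members the quotient lies near 1 by construction, as for KAT2B, with at most 1 UMI in a thinned cell. There it cannot show whether levels varied between cells. Before thinning, BRD2 reached 18 UMIs in a cell labelled treated and 12 in a cell labelled untreated, the most of any member. The 1% of cells with the most UMIs of a member held from 5.11% (BRD2) to 45.5% (KAT2B) of them in the library labelled treated and from 4.00% to 42% for the same genes in the library labelled untreated. The share was higher for scarce members, and KAT2B, with 154 and 100 UMIs, had at most 2 in any cell. A thinned cell held a mean of 1.23 of the 9 members in the library labelled treated and 1.14 in the library labelled untreated, and 23.3% and 24.7% of cells held none. Pearson's r between members over cells, on log thinned UMIs of 6012 and 3892 cells, ran from -0.0345 to 0.0374 over all 36 pairs, and none of 7734 genes with at least 1000 UMIs reached 0.1 in both libraries with any member. The cells of a library share its preparation, and at these counts such r values describe sampling as much as the cells.

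The members were next read by called cell cycle phase, which uses lists that hold none of the 9. By these calls 13.2% of thinned cells labelled treated and 18.0% of those labelled untreated were in G1, 40.4% and 49.0% in S, and 46.4% and 33.0% in G2/M. These shares come from scoring both libraries together. Scored alone, the libraries had the opposite order for G1, at 11.2% of thinned cells labelled treated and 9.15% of those labelled untreated. The order held for S, at 42.3% and 56.6%, and for G2/M, at 46.5% and 34.2%. Which library had more cells in G1 thus depended on the scoring. Such calls order cells by their transcripts and are no measure of cycling. CREBBP was lower in S than in G2/M in both libraries. It had 22.6 CPM (19.99 to 25.4) in G2/M and 12.7 CPM (10.6 to 15.02) in S among cells labelled treated, a ratio of 1.78 (1.44 to 2.21). Among cells labelled untreated it had 19.7 CPM in G2/M and 9.28 CPM in S, a ratio of 2.12 (1.57 to 2.88). In G1 it had 19.3 CPM in cells labelled treated, which did not differ from G2/M beyond counting error (G2/M over G1 1.17, 0.891 to 1.55), and 11.2 CPM in cells labelled untreated, where G2/M was higher (1.76, 1.19 to 2.67). Over all genes, the 5th to 95th percentiles of the G2/M to S ratio were 0.626 to 1.72 in the library labelled treated. In the library labelled untreated they were 0.532 to 1.85. EP300 was also higher in G2/M than in S, by 1.31 (1.05 to 1.64) and 1.45 (1.05 to 2.004). With each library scored alone its ratio in the library labelled treated was 1.11 (0.900 to 1.38). Its G2/M level did not differ from G1 beyond counting error, at ratios of 0.939 (0.704 to 1.27) in cells labelled treated and 1.01 (0.687 to 1.51) in cells labelled untreated. BRD2 was lower in G2/M than in S, by ratios of 0.888 (0.827 to 0.954) and 0.826 (0.756 to 0.901). Its G2/M to G1 ratio was 1.11 (0.991 to 1.24) in cells labelled treated and 0.788 (0.706 to 0.880) in cells labelled untreated. BRD3 and KAT2A had G2/M to S ratios of 0.948 to 1.01 whose intervals held 1 in both libraries. For KAT5 this ratio was 1.18 (1.03 to 1.34) in cells labelled treated and 1.19 (0.981 to 1.44) in cells labelled untreated.

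**Figure D3:**
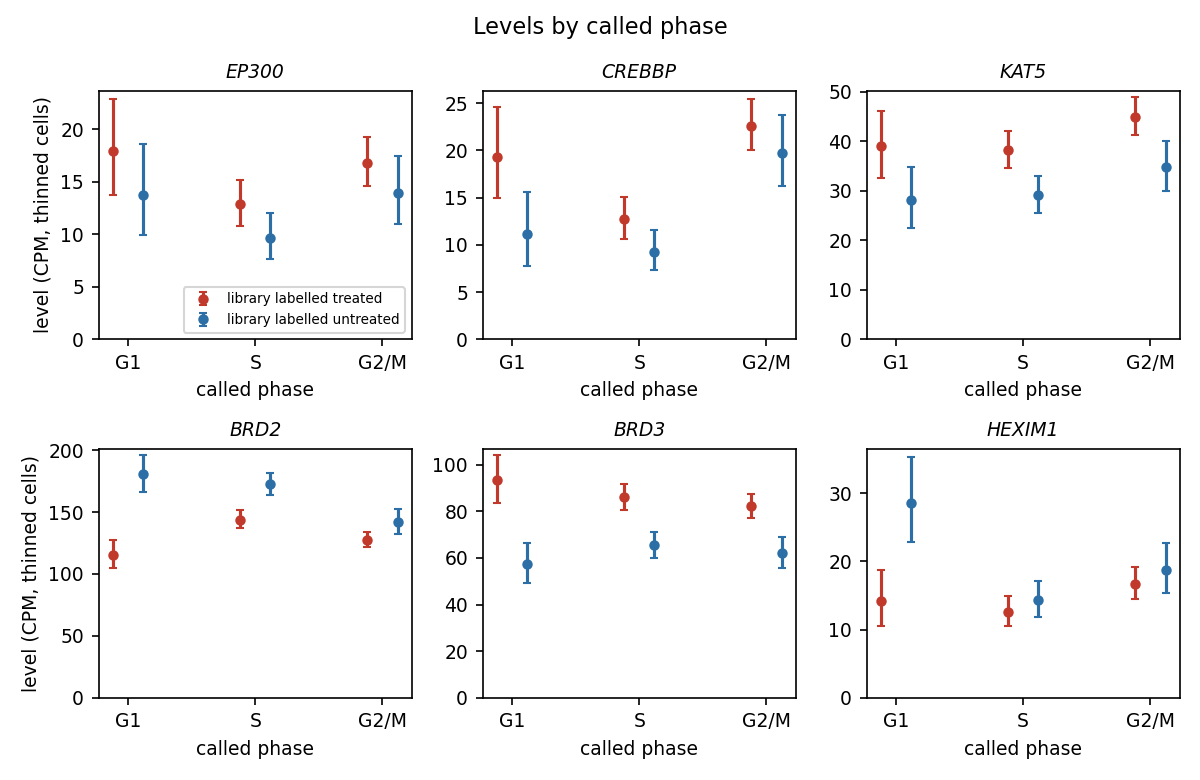
Level of 6 of the 9 genes by called phase, in CPM of thinned cells with exact Poisson intervals, for the library labelled treated (red, left) and the library labelled untreated (blue, right). CREBBP is highest in G2/M in both libraries, and HEXIM1 in G1 stands at 14.1 CPM in the library labelled treated and 28.6 CPM in the library labelled untreated.

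The libraries stood further apart for HEXIM1 in cells called G1 than in the other cells. There HEXIM1 had 14.1 CPM (10.5 to 18.7) in 796 cells labelled treated and 28.6 CPM (22.9 to 35.2) in 700 cells labelled untreated, a ratio of 0.495 (0.342 to 0.711). In S it had 12.6 CPM in cells labelled treated and 14.3 CPM in cells labelled untreated, a ratio of 0.878 (0.681 to 1.13), and in G2/M 16.7 and 18.8 CPM, a ratio of 0.886 (0.696 to 1.13). The ratio in G1 was 0.541 times the ratio in the other cells, with a counting interval of 0.367 to 0.798. In all cells outside G1 the ratio was 0.915 (0.770 to 1.09). Within the library labelled untreated, HEXIM1 was 1.99 times (1.49 to 2.65) as high in G1 as in S, and within the library labelled treated 1.12 times (0.793 to 1.57). Its G2/M to S ratio was 1.32 (1.06 to 1.66) in cells labelled treated and 1.31 (0.999 to 1.72) in cells labelled untreated.

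BRD2 showed the same direction, with 115 CPM in cells labelled treated and 181 CPM in cells labelled untreated in G1, a ratio of 0.640 (0.561 to 0.729), against 0.844 (0.799 to 0.892) outside G1. BRD3 stayed above 1 in each phase, with ratios of 1.62 (1.35 to 1.962) in G1, 1.31 in S and 1.32 in G2/M. In G1, 4 of 9 members were at least 1.5-fold higher (CREBBP, KAT2A, KAT2B and BRD3) and 2 at least 1.5-fold lower (BRD2 and HEXIM1), against 5.09% and 5.74% of 6012 genes with at least 100 UMIs there. Of the 6 members at that minimum, 2 were higher and 2 lower, and KAT2A and KAT2B rest on 84 and 17 UMIs. No member passed 1.5-fold in S, where 3.65% of genes were higher and 7.19% lower, or in G2/M, where 5.34% were higher and 6.97% lower. Cells called G1 had medians of 7081.5 UMIs before thinning in the library labelled treated and 8541 in the library labelled untreated, and ribosomal protein transcripts took 22.6% and 22.2% of their UMIs. Phase and depth were not crossed. With each library scored alone, HEXIM1 in G1 had a ratio of 0.443 (0.285 to 0.685) and BRD2 of 0.658 (0.559 to 0.774).

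MALAT1, an abundant RNA that stays in the nucleus, was used to sort the cells a second way. In the 10% of thinned cells with the fewest MALAT1 UMIs, HEXIM1 had 18.0 CPM (13.2 to 23.9) in the library labelled treated and 42.5 CPM (33.3 to 53.6) in the library labelled untreated, a ratio of 0.423 (0.286 to 0.619). In the 10% with the most, it had 14.5 CPM in the library labelled treated and 18.3 CPM in the library labelled untreated, a ratio of 0.793 (0.481 to 1.32). BRD2 had 111 CPM in the lowest 10% of cells labelled treated and 174 CPM in that of cells labelled untreated. In the highest 10% it had 149 and 161 CPM. KAT6A and KAT2B changed direction between the ends. KAT6A had a ratio of 1.53 (0.879 to 2.78) in the lowest 10% and 0.628 (0.377 to 1.05) in the highest. KAT2B had 4.53 from 7 and 1 UMIs in the lowest and 0.647 from 4 and 4 UMIs in the highest. Their intervals held 1, and differences between the ends were not tested. G1 calls made up 34.6% of the lowest 10% in the library labelled treated and 38.0% in the library labelled untreated, so this sorting and the phase calls overlap. Without the lowest 10% the log2 ratio was -0.13 for HEXIM1 and -0.27 for BRD2, against -0.32 and -0.31 in all thinned cells. Unthinned, it was -0.36 and -0.29 in all cells.

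Sorted by UMIs before thinning, the ratios of BRD2, CREBBP and KAT2A changed direction between the ends, and differences between the ends were not tested. In the deepest 10% of cells BRD2 had 149 CPM in the library labelled treated and 134 CPM in the library labelled untreated, a ratio of 1.12 (0.946 to 1.32), against 0.876 (0.751 to 1.02) in the shallowest 10%. CREBBP had a ratio of 0.845 (0.536 to 1.34) in the deepest and 1.78 (1.05 to 3.14) in the shallowest. KAT2A had 0.971 (0.588 to 1.63) and 1.26 (0.707 to 2.32). BRD3 had ratios of 1.57 (1.22 to 2.04) and 1.47 (1.19 to 1.82), above 1 at both ends, and HEXIM1 of 0.647 (0.365 to 1.15) and 0.787 (0.498 to 1.251), below 1 at both ends with intervals that held 1.

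Sorted by mitochondrially encoded UMIs, HEXIM1, EP300 and KAT2B changed direction instead. HEXIM1 had 36 UMIs in cells labelled treated and 17 in cells labelled untreated in the highest 10%, a ratio of 1.37 (0.750 to 2.60), against 0.578 (0.372 to 0.896) in the lowest 10%. EP300 had a ratio of 1.51 (0.851 to 2.79) in the highest and 0.688 (0.412 to 1.15) in the lowest. KAT2B had 2.16 from 10 and 3 UMIs in the highest and 0.555 from 6 and 7 UMIs in the lowest. BRD2 stayed below 1 at both ends, at 0.798 (0.683 to 0.934) and 0.772 (0.658 to 0.907), and BRD3 above 1, at 1.502 (1.19 to 1.91) and 1.29 (1.02 to 1.63). Apart from that of HEXIM1 in the lowest 10%, the intervals of HEXIM1, EP300 and KAT2B held 1, and differences between ends were not tested.

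In 5 of 6 lists of related genes more ratios lay above 1 than below, and few genes passed 1.5-fold. Among 14 measured other acetyltransferase genes, 10 had ratios above 1 and 4 below, and 1 passed 1.5-fold upward and 0 downward; the median log2 ratio was 0.11. The 1 gene was NCOA1, a coactivator of nuclear receptors, with 21.3 CPM in the library labelled treated and 13.0 CPM in the library labelled untreated, a ratio of 1.63 (1.48 to 1.80). KAT6B, the paralog of KAT6A, had a ratio of 1.40 (1.30 to 1.51) and KAT7 of 1.255 (1.16 to 1.35), while KAT8 and HAT1 had ratios of 1.05 (0.967 to 1.14) and 1.03 (0.986 to 1.08).

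Subunits of acetyltransferase complexes had 39 of 51 measured members above 1 and 12 below, a median log2 ratio of 0.19, 3 at least 1.5-fold higher and 0 lower. The 3 were TADA2B, an adaptor of SAGA, at 1.93 (1.52 to 2.46) from 252 and 99 UMIs, EPC1, a scaffold of NuA4, at 1.53 (1.45 to 1.62), and BRPF1, the partner of KAT6A, at 1.51 (1.32 to 1.74). Other bromodomain, YEATS and PHD finger readers had 26 of 32 above 1 and 6 below, with a median of 0.20. In that list ATAD2, which is also in the S phase list, was 1.52-fold higher (1.47 to 1.57), and DPF1, a subunit of the neuronal BAF complex, had 14.0 CPM in the library labelled treated and 32.1 CPM in the library labelled untreated, a ratio of 0.435 (0.399 to 0.474).

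Genes of P-TEFb, 7SK and elongation had 19 of 25 above 1 and 6 below, a median of 0.13, and none past 1.5-fold; AFF4, a scaffold of the super elongation complex, had a ratio of 1.19 (1.10 to 1.28). Inhibitors and cofactors of acetyltransferases had 6 of 13 above 1 and 7 below and a median of -0.08. CITED4, which binds p300 and CBP, was the 1 gene past 1.5-fold there, with 2.36 CPM in the library labelled treated and 8.56 CPM in the library labelled untreated, a ratio of 0.276 (0.226 to 0.335). Genes that supply acetyl-CoA had 5 of 8 above 1 and 3 below, a median of 0.07, and none past 1.5-fold. Over all 12812 genes 49.2% had ratios above 1.

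**Figure D4:**
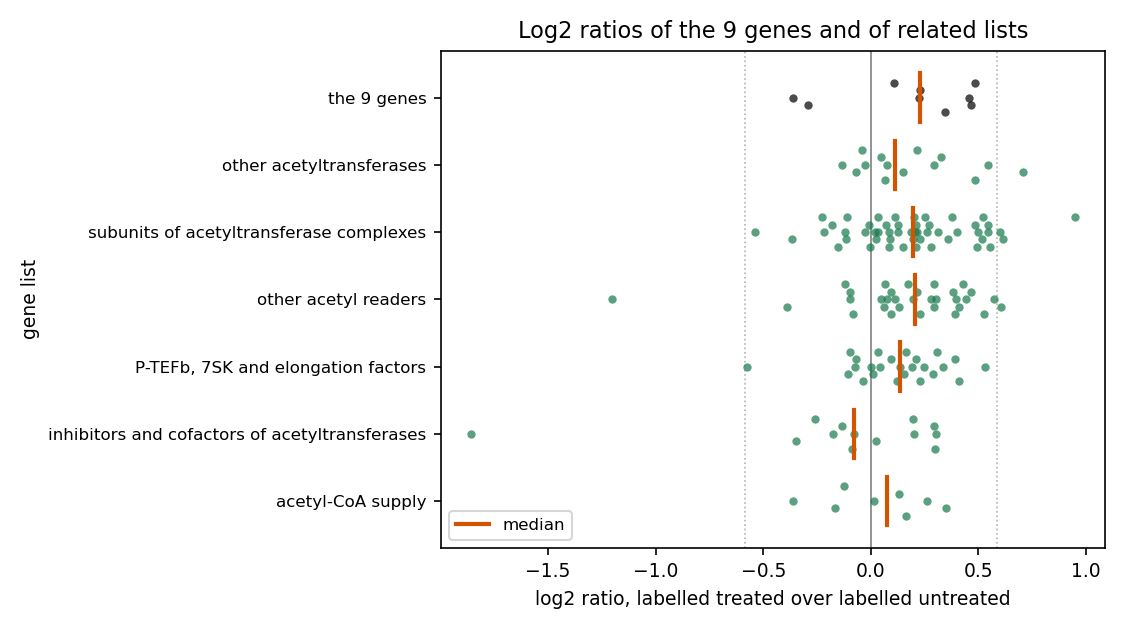
Log2 ratio of levels, library labelled treated over library labelled untreated, of the 9 genes (black) and of each gene with at least 100 UMIs in 6 related lists (green), with medians as orange bars and dotted lines at 1.5-fold. The medians run from -0.08 for inhibitors and cofactors to 0.23 for the 9 genes, and the points furthest left are CITED4 and DPF1.

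Some of these genes overlap others in the annotation (GENCODE release 29, used for names only). KAT5 overlaps RNASEH2C and BRD2 overlaps HLA-DMA, both on the opposite strand, and how strand was treated in counting is not given in the sources used here. HLA-DMA had only 0.199 CPM in the library labelled treated and 1.62 CPM in the library labelled untreated, against 132 and 161 CPM for BRD2. RNASEH2C had 82.9 CPM in the library labelled treated and 93.8 CPM in the library labelled untreated, the opposite order to KAT5.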

How the data were processed

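Single-cell RNA was measured in 2 libraries of WaGa cells, 1 labelled treated and 1 labelled untreated. Tools named in the submitters' processing notes are Cell Ranger and Seurat, with build hg19; their versions and the cell filters are not given in the sources used here. From these the authors deposited 1 table of natural log values, ln(1 + counts per 10000 counts of the cell), for 32742 genes and 10816 cells, and cells were assigned by the treatment word that ends each cell name. UMIs were recovered by dividing each cell's back-transformed values by its smallest value above 0, and 100% came out whole within a relative tolerance of 1e-06. No cell filter was added and doublets were not called.

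UMIs were summed per library and expressed as CPM. Ratios have exact Clopper-Pearson intervals on a gene's share of UMIs, levels exact Poisson intervals and shares of cells exact Clopper-Pearson intervals, and these cover counting error only. The ratio of ratios for G1 has a normal-approximation interval on the log scale, and no interval is adjusted for the number of genes. Phases were called with scanpy 1.11.5 on thinned cells from 40 of 43 S genes and 54 of 54 G2/M genes, both libraries scored together. Other tools were Python 3.11.15, numpy 2.4.6 and scipy 1.17.1. The ratio code was tested on simulated data. The members, lists, markers and alternatives were chosen with earlier results of these data known. Genes named are the 9 members, partners chosen by name, and up to 3 genes at each end of a list past 1.5-fold; some of these are not reported here. Alternatives changed the scaling, weighting, pseudocount, gene minimum, fold, cells and phases.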

Additional observations from a re-analysis of the deposited data

How the results depend on the processing

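No paired analysis was possible because each group has 1 library, and no library could be left out for the same reason. Of the 9 members, 8 kept the direction of their log2 ratio under all 15 alternatives. KAT6A kept it in 13, with -0.09 in cells called S and about -0.0012 in cells of 7000 to 12000 UMIs. Some alternatives could not or could hardly change a direction. A pseudocount cannot, and the changed scalings moved KAT6A, the smallest log2 ratio in size, only from 0.107 to 0.114 and 0.115. The 10% of cells at either end of depth, of MALAT1 UMIs or of mitochondrially encoded UMIs, where some members changed direction, are not among the 15. The log2 ratio ran from 0.08 to 0.52 for EP300, 0.20 to 0.79 for CREBBP, 0.28 to 0.73 for BRD3, -0.64 to -0.16 for BRD2 and -1.17 to -0.13 for HEXIM1. HEXIM1 had -0.13 in thinned cells without those called G1, against -0.32 in all thinned cells and -0.36 in all cells. The 3 alternatives chosen after seeing the data left out cells called G1, left out the 10% of cells with the fewest MALAT1 UMIs, or scored each library alone for G1.

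Members at least 1.5-fold higher numbered 0 in all cells, 1 in cells of 7000 to 12000 UMIs (CREBBP), 4 in cells called G1, 3 in G1 with each library scored alone and 4 at a log2 fold of 0.32. Members at least 1.5-fold lower numbered 0 in all cells, 2 in both G1 settings and 1 at a log2 fold of 0.32. The members' median log2 ratio was 0.23 in all cells and 0.38 in all thinned cells. Among thinned cells it was 0.47 in G1, 0.56 in G1 scored alone, 0.39 in S and 0.27 in G2/M. All genes higher and lower numbered 406 and 1567 in all cells, 42 and 207 with a pseudocount of 10 CPM, 60 and 761 at a fold of 2, 1689 and 2787 at a log2 fold of 0.32, 1604 and 4411 at 1 UMI in each library, and 231 and 619 at 500 UMIs. Genes lower numbered 1037 in cells of 7000 to 12000 UMIs and 1053 in all thinned cells. Among thinned cells they were 345 of 6012 genes (5.74%) in G1, 675 of 9382 (7.19%) in S and 642 of 9205 (6.97%) in G2/M. In all cells they were 1567 of 12812 (12.2%). The minimum of 100 UMIs was applied within the cells used, so these settings counted different sets of genes. The pseudocount shrinks ratios of scarce genes, and the minimum and fold change what is counted by construction. How much of the other shifts the gene sets account for was not tested, nor was any other cause. The share of cells with a UMI, labelled treated minus labelled untreated, changed sign unthinned for 3 members: to -0.277 percentage points for KAT2A, -1.40 for KAT6A and -0.132 for KAT2B.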
